A study of Homo sapiens with 27 samples.

Results

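The response of OCI-Ly1 cells to the second hairpin against SIRT3 was measured in 6 of the 27 RNA-seq libraries of the series, 3 carrying shSIRT3-2 and 3 carrying the control hairpin shCTRL. OCI-Ly1 is an established human cell line of diffuse large B-cell lymphoma (DLBCL) of the germinal centre B-cell type. The cells received a lentiviral vector that expresses a short hairpin RNA together with YFP and a puromycin resistance gene. In the shCTRL group the hairpin is a scrambled sequence, and no other genetic change separates the groups. Per the paper's methods, puromycin selection began no earlier than 3 days after infection, and total RNA was taken at day 8 after infection. The other hairpin, shSIRT3-1, was introduced into the same line in 3 further libraries, and the other 18 libraries hold the same 3 groups in the DLBCL lines Karpas422 and HBL1. Of the 27115 genes listed, 11003 had a value of at least 1 CPM, the unit of reads scaled to a common library total, in at least 3 of the 6 libraries and were tested. The question was which transcripts move with this hairpin alone, and which of them move beyond the spread among the control libraries.

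SIRT3 is a deacylase of the mitochondrial matrix that uses NAD and removes acetyl groups from metabolic enzymes, among them enzymes that feed glutamine carbon into the tricarboxylic acid (TCA) cycle. ATF4 is a transcription factor of the integrated stress response. It pairs with C/EBP proteins on DNA and raises genes for amino acid synthesis, amino acid uptake and the charging of transfer RNAs. Germinal centre B-cells carry surface receptors that tune signalling from the B-cell receptor, among them the Fc receptor-like (FCRL) proteins, and present antigen on major histocompatibility complex (MHC) class II molecules.

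SIRT3 mRNA, the target of the hairpin, was lower with shSIRT3-2 in all 3 libraries. It was read at 10.7, 13.8 and 9.98 CPM in shCTRL replicates 1 to 3 and at 6.17, 4.06 and 6.03 CPM in shSIRT3-2 replicates 1 to 3. The groups do not overlap, and the mean fell from 11.5 ± 2.00 to 5.42 ± 1.18 CPM (SD, n = 3 each). The log2 fold change was -1.08 (SE 0.26, adjusted p = 0.0353, limma with Benjamini-Hochberg adjustment over the 11003 genes), which leaves 47.3% of the control level. This call held without shCTRL replicate 1 and was lost when any other of the 6 libraries was left out, with a log2 fold change between -1.18 and -0.888 (adjusted p = 0.0969 without shCTRL replicate 2 and 0.125 without shSIRT3-2 replicate 2). With same-numbered libraries paired in a replicate block and shCTRL replicate 2 left out, SIRT3 was called at -0.717 (adjusted p = 0.0263). With shSIRT3-1 the gene was read at 2.23, 1.06 and 1.62 CPM, and the difference between the hairpins was 1.70 (SE 0.26, adjusted p = 0.00729) on the log2 scale, so that shSIRT3-2 left more SIRT3 mRNA. The gene lies on the minus strand of chromosome 11 in hg19, from 215030 to 236931. In RNA pooled from many cells, fewer cells of a kind and less RNA per cell cannot be told apart. Of the 5 other sirtuins tested, none passed the test.

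The 6 libraries held 42137546 to 50147928 reads on genes. B-cell markers were high throughout, with CD79A, a chain of the B-cell receptor complex, at 304 to 369.9 CPM and MS4A1, which encodes CD20, at 144 to 252 CPM. The T-cell gene CD3E did not exceed 0.0198 CPM, and the 10 T-cell, 10 myeloid and 10 epithelial and fibroblast markers summed to at most 2.19, 1.11 and 0.717 CPM in any of these libraries. The control libraries stood apart from each other. In shCTRL replicate 2, 111 genes (1.01% of those tested) lay more than 2-fold above both other controls, against 21 in replicate 1 and 46 in replicate 3. In replicate 1, 91 genes lay more than 2-fold below both others. The median within-group SD of log2 values was 0.202 over shCTRL, 0.115 over shSIRT3-2 and 0.125 over shSIRT3-1. The shCTRL replicate 1 library was closer to shSIRT3-2 replicate 1 (median absolute log2 difference 0.154) than to the other controls (0.241 and 0.246). Among the shSIRT3-2 libraries, replicates 1 and 3 differed by a median of 0.0786, while replicate 2 lay more than 2-fold below both of them for 147 genes and above both for 40. The main results are therefore given library by library, and calls that end without shCTRL replicate 2 are named.

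Across all genes, 698 of the 11003 (6.34%) passed a fold change of 1.5 and an adjusted p of 0.05 with shSIRT3-2, 465 lower (4.23%) and 233 higher (2.12%). Falls thus made up 66.6% of the calls, while the median log2 fold change over all genes tested was 0.006. Without shCTRL replicate 2, 354 genes (3.22%) were called, 208 lower (1.89%) and 146 higher (1.33%), and 299 of the 698 were among them with the same direction. With same-numbered libraries paired in a replicate block, 974 genes (8.85%) were called, 631 lower (5.73%) and 343 higher (3.12%), and the block without shCTRL replicate 2 gave 641. The 6 libraries were fully separated by group for 464 of the 465 falls and all 233 rises, beside 17.9% and 15.4% of all tested genes that were separated in those directions (33.2% in either). The count rested on single libraries: it was 1284 without shCTRL replicate 1, 195 without shCTRL replicate 3, and 372, 117 and 222 without shSIRT3-2 replicates 1, 2 and 3.

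**Figure D1:**
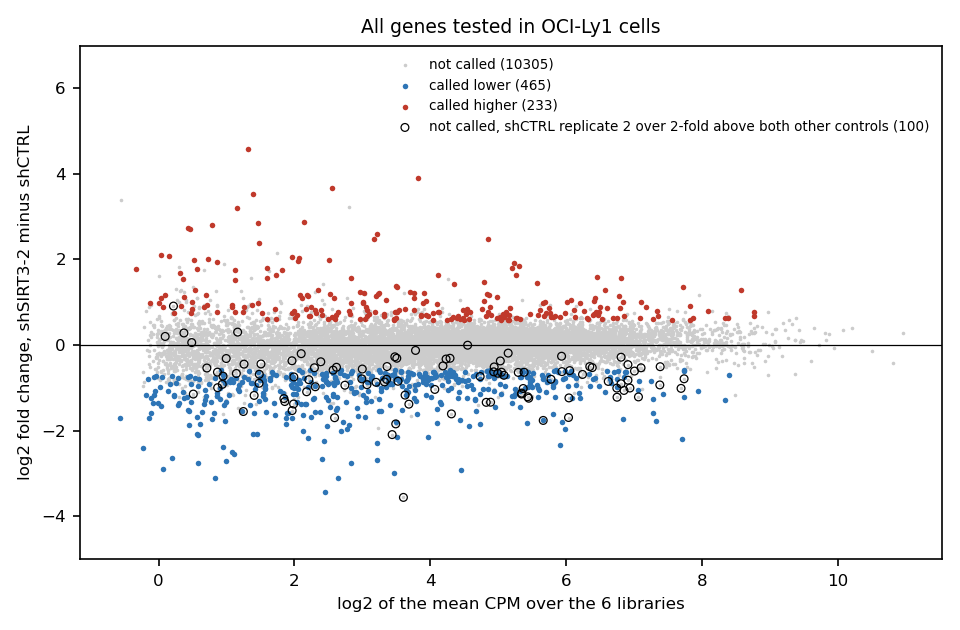
Log2 fold change of shSIRT3-2 minus shCTRL (vertical axis) against the log2 of the mean CPM over the 6 libraries (horizontal axis), with 1 point for each of the 11003 genes tested. The 465 called falls are blue, the 233 called rises are red, and black rings mark 100 genes that were not called and lay more than 2-fold higher in shCTRL replicate 2 than in both other controls; most rings sit below 0.

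The largest falls, ranked among called genes whose groups did not overlap, were in genes of varied function. Several of these genes lay below 1 CPM in all 3 shSIRT3-2 libraries. Such genes were tested only because all 3 controls reached 1 CPM. SLC6A9, a glycine transporter (hg19 chromosome 1, 44457172 to 44497139), had the largest fall among the called genes. It was read at 1.67, 28.3 and 1.75 CPM in the controls and at 0.356, 0.245 and 0.363 CPM with shSIRT3-2, a log2 fold change of -3.44 (SE 0.86, adjusted p = 0.0385), or -2.11 (adjusted p = 0.00979) without shCTRL replicate 2. That control alone carried the high level, and the other controls still lay well above all 3 shSIRT3-2 libraries. NKX6-3, a homeobox transcription factor, went from 1.31, 3.45 and 5.02 to 0.406, 0.0686 and 0.373 CPM (log2 fold change -3.11, SE 0.56, adjusted p = 0.0162). RAB25, a small GTPase of recycling endosomes, went from 7.56, 10.5 and 15.4 to 1.97, 0.392 and 1.83 CPM (-3.10, SE 0.59, adjusted p = 0.0181). DNAJC5B, a co-chaperone of the cysteine string family, went from 10.5, 23.3 and 25.1 to 2.97, 1.18 and 3.16 CPM (-2.98, SE 0.46, adjusted p = 0.0109). In these 3 genes the control replicates spread over 2-fold or more. That all controls lay above every shSIRT3-2 library was a condition for ranking a gene here, and is no further support.

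LTB, which encodes lymphotoxin beta, was read at 30.7, 50.4 and 33.1 CPM in the controls and at 8.03, 1.91 and 7.18 CPM with shSIRT3-2 (log2 fold change -2.92, SE 0.55, adjusted p = 0.0179). Its call was lost without shCTRL replicate 2 (adjusted p = 0.0531) and without shCTRL replicate 3 (0.0597). CRTAM, a surface receptor best known from T and NK cells, went from 1.40, 1.64 and 2.73 to 0.267, 0.0784 and 0.167 CPM (-2.91, adjusted p = 0.0106). CCDC141, a coiled-coil protein, fell from 2.48, 3.32 and 4.77 to 0.584, 0.314 and 0.451 CPM (-2.70, SE 0.29, adjusted p = 0.00323). TSPOAP1, a protein that binds the mitochondrial translocator protein TSPO, fell from 10.5, 17.4 and 20.4 to 2.82, 1.56 and 2.87 CPM (-2.68, SE 0.32, adjusted p = 0.00533). The cystine transporter SLC7A11 was also among the 10 largest falls and is described with the ATF4-linked genes. In all 10, shSIRT3-2 replicate 2 had the lowest value of its group. Of the 10 calls, 9 were kept without shCTRL replicate 2, 6 without shCTRL replicate 3 and 5 without shSIRT3-2 replicate 2, and those of DNAJC5B, CRTAM, CCDC141 and TSPOAP1 were kept whichever of the 6 libraries was left out.

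The largest rises, ranked likewise among called genes without overlap, started from transcripts that were low in the controls, at 1.90 CPM or less. Those below 1 CPM in all 3 controls were tested only because all 3 shSIRT3-2 libraries reached 1 CPM. C10orf10, now named DEPP1 and known as a gene that FOXO factors turn on (hg19 chromosome 10, 45466429 to 45474257), was read at 0.135, 0.130 and 0.0498 CPM in the controls and at 3.22, 6.53 and 4.86 CPM with shSIRT3-2. The log2 fold change was 4.57 (SE 0.58, adjusted p = 0.0072) on the log2(CPM + 0.1) scale, which understates the change of such low genes. CPNE2, a copine that binds membrane phospholipids in the presence of calcium, rose from 1.21, 1.90 and 1.26 to 14.2, 48.2 and 17.6 CPM (3.91, SE 0.66, adjusted p = 0.0141). NAV3, a neuron navigator protein of microtubule ends, rose from 0.993, 1.14 and 0.189 to 5.45, 20.3 and 7.16 CPM (3.68, SE 0.66, adjusted p = 0.0162). For all 3 genes the lowest shSIRT3-2 library lay more than 4-fold above the highest control.

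CELF6, an RNA-binding protein of splicing, rose from 0.393, 0.286 and 0.299 to 2.51, 6.61 and 3.28 CPM (log2 fold change 3.20, SE 0.46, adjusted p = 0.00892). C10orf71, a gene mainly known from muscle, rose from 0.745, 1.28 and 0.766 to 5.24, 12.8 and 5.69 CPM (2.87, SE 0.37, adjusted p = 0.0072). TAS1R3, a subunit of taste receptors, rose from 0.217, 0.433 and 0.169 to 1.60, 3.77 and 1.94 CPM (2.74, adjusted p = 0.00816). MTSS1L, which binds actin at the membrane, rose from 0.135, 0.312 and 0.358 to 1.94, 9.73 and 3.25 CPM (3.52, adjusted p = 0.0258). NPPA, the atrial natriuretic peptide, rose from 0.662, 0.615 and 0.309 to 2.47, 8.93 and 3.59 CPM (2.86, adjusted p = 0.0311). The Dickkopf receptor KREMEN1 and the lysophospholipid receptor GPR34 completed the 10. KREMEN1 rose from 0.269, 0.372 and 0.199 to 1.38, 6.45 and 1.71 CPM (2.80, adjusted p = 0.0244), and GPR34 from 0.393, 0.121 and 0.219 to 1.43, 4.98 and 1.16 CPM (2.71, adjusted p = 0.0261). Without shCTRL replicate 2 the calls of MTSS1L, NPPA and GPR34 were lost (adjusted p = 0.0596, 0.0668 and 0.0715). In all 10 the highest library was shSIRT3-2 replicate 2, and of the shSIRT3-1 libraries it was again replicate 2. The same number marks the lowest library in the 10 falls of both hairpin groups, and the lowest SIRT3 level of each. Its part in these results was not tested. Of the 10 rises, 7 were called without shCTRL replicate 2, 5 without shCTRL replicate 3 and 4 without shSIRT3-2 replicate 2, the 4 being C10orf10, CELF6, C10orf71 and TAS1R3, which held in each of the 6 cases.

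**Figure D2:**
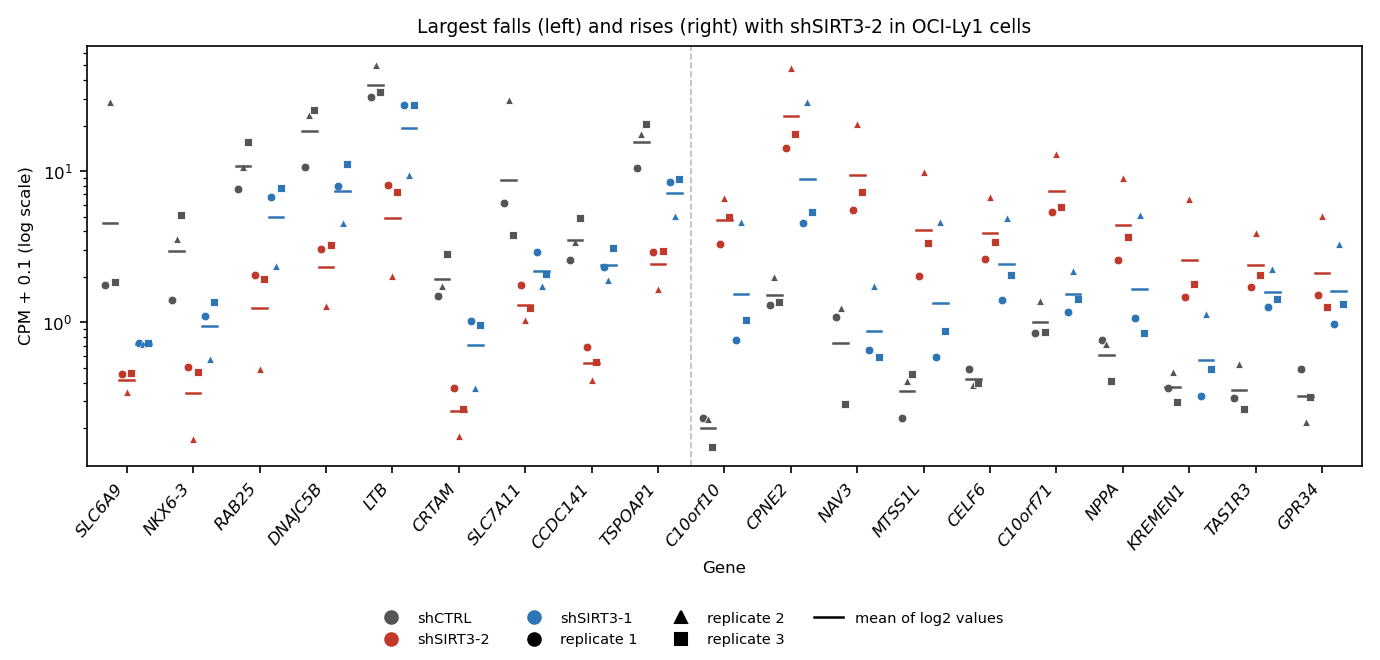
CPM plus 0.1 on a log scale for 9 of the 10 largest called falls (left of the dashed line) and the 10 largest called rises (right), in shCTRL (grey), shSIRT3-2 (red) and shSIRT3-1 (blue) libraries of OCI-Ly1. Circles, triangles and squares are replicates 1, 2 and 3 and bars are means of log2 values. The red triangle is the most extreme red point in all 19 genes. The shSIRT3-1 group mean of the CPM values lies between the other groups in all 19, for NAV3 at 0.895 against 0.775 CPM in shCTRL. The genes were chosen for the gap between shSIRT3-2 and shCTRL, so this order is no evidence of a response to shSIRT3-1.

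Of 8 FCRL genes listed, 6 were tested and 5 were called lower with shSIRT3-2, beside 4.23% of all genes, and all 5 also without shCTRL replicate 2, beside 1.89%. All but FCRL2 were chosen for description after their values had been seen. FCRL1, a coreceptor of the B-cell receptor, was read at 8.99, 9.37 and 9.01 CPM in the controls and at 3.85, 2.71 and 3.23 CPM with shSIRT3-2 (log2 fold change -1.47, SE 0.14, adjusted p = 0.00162). FCRL2, whose product carries inhibitory motifs (hg19 chromosome 1, 157715523 to 157746922), was read at 8.82, 6.02 and 7.95 against 1.99, 1.36 and 1.5004 CPM (-2.16, SE 0.19, adjusted p = 0.00147). The groups are separate for both genes, with a control SD of log2 values of 0.034 for FCRL1 and 0.28 for FCRL2, and both calls held whichever library was left out. With shSIRT3-1 neither gene was below the controls, FCRL1 being read at 10.002, 9.11 and 9.96 CPM and FCRL2 at 13.2, 10.4 and 13.2 CPM, and both differed between the hairpins (-1.55, adjusted p = 0.000663, and -2.86, adjusted p = 0.000217).

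FCRL3, another surface member, had controls of 212, 287 and 532 CPM and shSIRT3-2 values of 97.9, 43.5 and 77.3 CPM (log2 fold change -2.21, SE 0.39, adjusted p = 0.0156). FCRL5 went from 15.9, 16.0 and 20.8 to 7.32, 3.95 and 7.57 CPM (-1.51, adjusted p = 0.0194). FCRLB, an intracellular relative, went from 24.0, 20.1 and 31.9 to 10.6, 7.38 and 8.56 CPM (-1.49, adjusted p = 0.0212). These 3 calls were lost without shCTRL replicate 3 (adjusted p = 0.0509, 0.0706 and 0.073) and without shSIRT3-2 replicate 2 (0.0558, 0.0615 and 0.0828), and that of FCRLB also without shSIRT3-2 replicate 3 (0.0613). FCRLA, the other intracellular member, was read at 243, 209.7 and 168 against 204, 202 and 175 CPM, with overlapping groups (-0.08, adjusted p = 0.732). The 2 members not tested, FCRL4 and FCRL6, did not exceed 0.0396 CPM.

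Of the MHC class II list, 3 of 6 tested members were called lower and none higher, beside 4.23% and 2.12% of all genes. The median log2 fold change of the 6 was -0.897 against 0.006 over all genes. The 3 called genes belong to the peptide-loading machinery. HLA-DMA, a chain of the HLA-DM peptide exchanger, went from 8.27, 7.54 and 11.03 to 2.51, 1.01 and 2.21 CPM (log2 fold change -2.24, SE 0.49, adjusted p = 0.0264). HLA-DMB, the other chain, went from 2.01, 2.48 and 1.66 to 0.940, 0.323 and 0.784 CPM (-1.54, SE 0.35, adjusted p = 0.0289). HLA-DOB, a chain of the HLA-DO modulator, went from 2.56, 3.92 and 4.72 to 1.52, 1.02 and 1.47 CPM (-1.39, SE 0.26, adjusted p = 0.0175). The groups are separate in all 3 genes. Only HLA-DOB was called without shCTRL replicate 2 (adjusted p = 0.048, against 0.0574 and 0.0802 for HLA-DMA and HLA-DMB), and the 3 calls were lost without shCTRL replicate 3 (0.0882, 0.0689 and 0.0602) and without shSIRT3-2 replicate 2 (0.0965, 0.0811 and 0.0659), and those of HLA-DMA and HLA-DMB also without shSIRT3-2 replicate 3 (0.0613 and 0.0618). CIITA, the master activator of the class II genes, had a log2 fold change of -0.28 (adjusted p = 0.586) and CD74, the invariant chain, one of -0.11 (adjusted p = 0.723). The 8 members that were not tested, among them the HLA-DR, HLA-DP and HLA-DQ chains, did not exceed 0.268 CPM in any of the 6 libraries and lay under the 1 CPM filter.

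In the BCL2 family of apoptosis regulators 2 of 15 tested members were called, both lower, beside 4.23% of all genes. BCL2A1, an inhibitor of apoptosis, went from 2.13, 2.22 and 2.51 to 0.851, 0.411 and 0.765 CPM (log2 fold change -1.67, SE 0.32, adjusted p = 0.0194), and MCL1, another inhibitor, from 165, 158 and 193 to 107, 83.9 and 97.7 CPM (-0.84, SE 0.14, adjusted p = 0.0148). Controls varied little in both genes, and both calls held without shCTRL replicate 2 but not without shCTRL replicate 3 (adjusted p = 0.0681 and 0.0505) or shSIRT3-2 replicate 2 (0.0676 and 0.0558), and that of BCL2A1 not without shSIRT3-2 replicate 3 (0.0506). In the paired fit 4 of the 15 were called lower, beside 5.73% of all genes. LTA, the partner of LTB in the lymphotoxin trimer, fell from 2.05, 2.78 and 2.50 to 0.643, 0.323 and 0.579 CPM (-2.08, SE 0.31, adjusted p = 0.00963), a call that held with every library left out in turn. BIRC3, a ubiquitin ligase of TNF receptor signalling, went from 206, 305 and 208 to 98.0, 30.7 and 109 CPM (-1.77, adjusted p = 0.0472), and BCL3, a nuclear regulator of NF-κB, from 8.05, 13.7 and 8.46 to 4.16, 1.34 and 3.61 CPM (-1.80, adjusted p = 0.0261). The calls of BIRC3 and BCL3 were lost without shCTRL replicate 2 (adjusted p = 0.122 and 0.0721), shCTRL replicate 3 (0.108 and 0.0703), shSIRT3-2 replicate 2 (0.118 and 0.0559) or shSIRT3-2 replicate 3 (0.0623 and 0.0539), and that of BIRC3 also without shSIRT3-2 replicate 1 (0.0661). LTA, BIRC3 and BCL3 were chosen after their values had been seen.

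Genes of B-cell identity and stage went in both directions. Of the 9 activated B-cell and plasma cell genes tested, 3 were called lower and 1 higher, beside 4.23% and 2.12% of all genes. In the paired fit 5 of them were called lower, beside 5.73%. CD38, an ectoenzyme of plasma cells and germinal centre cells, went from 5.06, 6.49 and 7.74 to 2.15, 3.47 and 1.81 CPM (log2 fold change -1.37, SE 0.25, adjusted p = 0.0171), while the factor BATF went from 0.507, 0.909 and 0.537 to 1.11, 1.57 and 1.38 CPM (0.98, adjusted p = 0.0381). The kinase PIM2 and the caspase-8 regulator CFLAR were the other falls (-0.98 and -0.63), and both were called only with all libraries or without shCTRL replicate 1 (adjusted p = 0.068 and 0.101 without shCTRL replicate 2). Of 12 germinal centre genes 1 was called in each direction, beside the same 4.23% and 2.12%. MEF2C, a transcription factor of B-cell proliferation, rose from 66.4, 71.8 and 54.4 to 100.1, 124 and 94.6 CPM (0.73, SE 0.13, adjusted p = 0.0171), and the elongation factor ELL3 fell by 0.74 (adjusted p = 0.0204). Among 10 B-cell markers BANK1, an adaptor of B-cell receptor signalling, was the only call, beside 2.12% of all genes called higher. It rose from 103, 104 and 93.8 to 163, 223 and 174 CPM (0.89, SE 0.17, adjusted p = 0.0194). Of 3 surface proteins picked after their values were seen, the chemokine receptor CXCR5 fell from 209, 243 and 246 to 139.8, 62.3 and 132 CPM (-1.15, adjusted p = 0.0418). The chemokine receptor CCR7 rose from 1.02, 2.31 and 1.13 to 2.94, 9.54 and 4.26 CPM (1.75, adjusted p = 0.0353), and the transferrin receptor TFRC from 201, 77.4 and 100.4 to 279.7, 290.5 and 320.2 CPM (1.35, adjusted p = 0.0227). The calls of CD38, BATF, MEF2C, ELL3, BANK1, CXCR5, CCR7 and TFRC were all lost without shCTRL replicate 3, and all but that of CD38 also without shSIRT3-2 replicate 2 (adjusted p up to 0.134, for BATF). Without shSIRT3-2 replicate 3 all but that of MEF2C were lost (adjusted p up to 0.09996, for BATF). Those of BATF, CXCR5 and TFRC were lost without shSIRT3-2 replicate 1 (0.0611, 0.0504 and 0.0514). That of CXCR5 was lost without shCTRL replicate 2 (0.101) and that of CCR7 without shCTRL replicate 1 (0.0535).

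**Figure D3:**
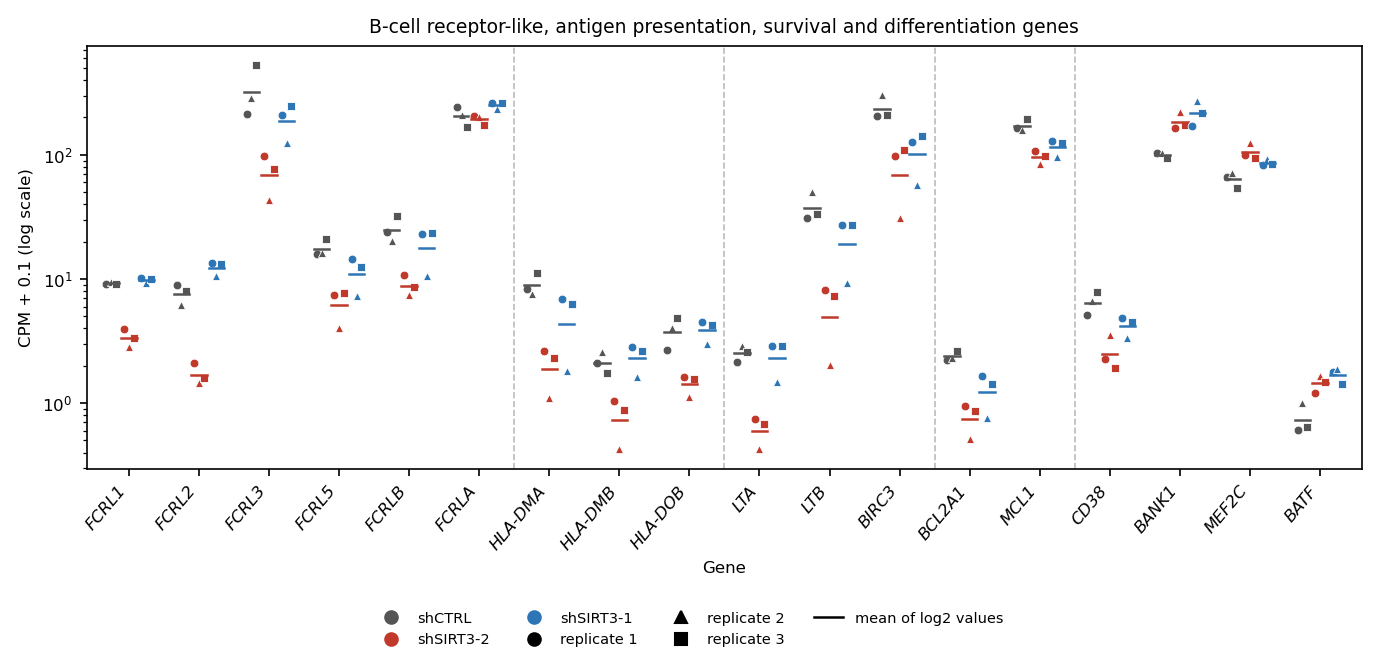
CPM plus 0.1 on a log scale for B-cell genes in OCI-Ly1 shCTRL (grey), shSIRT3-2 (red) and shSIRT3-1 (blue) libraries, with circles, triangles and squares for replicates 1, 2 and 3 and bars for means of log2 values. Dashed lines part FCRL genes, MHC class II genes, lymphotoxin and BIRC3, BCL2 family members, and other B-cell genes; for FCRL1 and FCRL2 only the red points lie below the grey ones.

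The ATF4-linked genes gave few calls, and their control libraries stood apart from each other. ATF4 itself was read at 152, 326 and 129 CPM in the controls and at 130.0, 147 and 116 CPM with shSIRT3-2, so that the groups overlap (log2 fold change -0.505, SE 0.29, adjusted p = 0.273, or -0.0976 without shCTRL replicate 2). None of the 21 tested ATF4-linked stress effectors was called, although their median log2 fold change was -0.635. Without shCTRL replicate 2 that median was -0.13. In 19 of these 21 genes shCTRL replicate 2 was the highest control, and in 15 it lay more than 2-fold above both others, against 1.01% of all tested genes. CHAC1, an enzyme that degrades glutathione, was the extreme case at 1.99, 67.2 and 2.23 CPM in the controls against 0.406, 0.617 and 0.451 CPM. Its log2 fold change of -3.56 (SE 1.10) missed the threshold (adjusted p = 0.0703), while it passed in the paired fit (adjusted p = 0.0241) and, at -1.91, without shCTRL replicate 2 (adjusted p = 0.04). SESN2, a stress-induced regulator of mTORC1, was read at 11.9, 119 and 10.1 against 9.56, 8.60 and 10.6 CPM, and the hormone gene ADM2 at 3.87, 51.9 and 4.96 against 3.57, 5.36 and 4.48 CPM. For both, shSIRT3-2 replicate 3 lay between control replicates 1 and 3 and the other shSIRT3-2 libraries lay close to them, while shCTRL replicate 2 alone lay far above. CHAC1, SLC6A9, ADM2 and SESN2 were 4 of the 5 genes with the largest SD of log2 values over the controls, among genes with a mean control level of at least 5 CPM.

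The 23 tested amino acid synthesis and one-carbon enzymes had a median log2 fold change of -0.533, or -0.21 without shCTRL replicate 2. Only ASNS, asparagine synthetase, was called, which is 4.35% of the list beside 4.23% of all genes called lower. It went from 98.0, 354 and 95.6 to 48.1, 42.7 and 44.2 CPM (-1.73, SE 0.41, adjusted p = 0.0328, and -1.10, adjusted p = 0.00749, without shCTRL replicate 2). The serine synthesis enzyme PSAT1 was read at 42.7, 250.2 and 33.7 against 22.8, 24.4 and 19.0 CPM (-1.69, adjusted p = 0.0986), and CTH, which makes cysteine from cystathionine, at 6.44, 44.7 and 5.68 against 3.07, 2.18 and 2.92 CPM (-2.09, adjusted p = 0.0651). In both, the 3 shSIRT3-2 values lay below every control, as they did for 17.9% of all tested genes. Both passed once shCTRL replicate 2 was left out (adjusted p = 0.0366 and 0.0289). Of 18 amino acid transporters 3 were called lower, beside 4.23% of all genes, and none higher. They were SLC6A9, SLC7A7 (-1.02, adjusted p = 0.0406) and SLC7A11. With single libraries left out, the call of SLC7A7 held only without shCTRL replicate 1. Its adjusted p was 0.0998 without shCTRL replicate 2, 0.0581 without shCTRL replicate 3, and 0.0738, 0.141 and 0.0899 without shSIRT3-2 replicates 1, 2 and 3. SLC7A11, the cystine importer, went from 6.02, 29.4 and 3.66 to 1.66, 0.931 and 1.14 CPM (-2.75, SE 0.62, adjusted p = 0.0282). Of 20 cytosolic aminoacyl-tRNA synthetases, which load amino acids onto transfer RNAs, 2 were called lower, beside 4.23% of all genes, and none higher. AARS, for alanine, went from 222, 477 and 208 to 129, 118 and 117 CPM (-1.20, SE 0.27, adjusted p = 0.0272), and YARS, for tyrosine, from 143, 287 and 121 to 88.7, 74.5 and 84.9 CPM (-1.05, adjusted p = 0.0398). None of the 17 mitochondrial synthetases was called (median -0.0506). The calls of ASNS, SLC6A9, SLC7A11, AARS and YARS held without shCTRL replicate 2 and were each lost without shSIRT3-2 replicate 1, 2 or 3, with adjusted p up to 0.134 (YARS without replicate 2). Those of ASNS and SLC6A9 were also lost without shCTRL replicate 3 (0.052 and 0.0602).

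**Figure D4:**
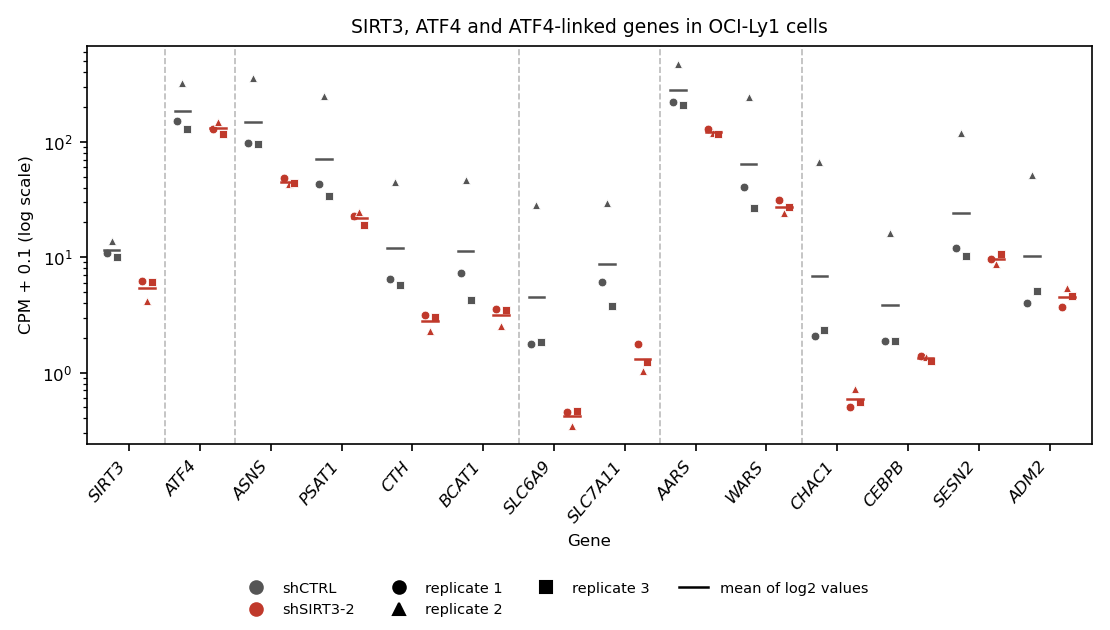
CPM plus 0.1 on a log scale for SIRT3, ATF4 and ATF4-linked genes in the 3 shCTRL (grey) and 3 shSIRT3-2 (red) libraries, with circles, triangles and squares for replicates 1, 2 and 3 and bars for means of log2 values. Dashed lines part SIRT3, ATF4, synthesis enzymes, transporters, synthetases and stress effectors; the grey triangle, shCTRL replicate 2, is the highest point for each gene (SESN2 at 119 CPM, WARS at 245 CPM).

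The DNA element that ATF4 and C/EBP proteins share was searched for as TGATGNAA or its reverse complement TTNCATCA in RefSeq promoter windows of 300 bases, from 250 bases before to 50 after each start, on GRCh38.p14. Windows were matched to 8890 of the 11003 genes tested. The motif was in 1270 of all 35116 windows (3.62%), and in 225 of the 8890 tested genes (2.53%). It was in 12 of 347 called falls (3.46%), in 2 of 194 called rises (1.03%) and 9 of the 140 falls that were also called without shCTRL replicate 2 (6.43%). Of the genes more than 2-fold higher in 1 control than in both others, it was in 5 of 18 for replicate 1 (27.8%), 16 of 81 for replicate 2 (19.8%) and 2 of 39 for replicate 3 (5.13%). In the lists it was in 5 of 12 cytosolic synthetases, 5 of 16 transporters, 5 of 18 stress effectors and 4 of 15 synthesis enzymes. It was also in 2 of 9 germinal centre genes, 2 of 9 activated B-cell and plasma cell genes, 2 of 12 BCL2 family genes, 1 of 5 MHC class II genes and 1 of 5 B-cell markers, and in 0 of 21 ER, 0 of 22 TCA cycle and 0 of 27 cell cycle genes. The stretches of 30 bases shown here hold the match of 4 genes that stood high in shCTRL replicate 2, at chr7:97872458-97872487 (ASNS, minus strand), chr16:70289675-70289704 (AARS, minus strand), chr15:40953251-40953280 (CHAC1, plus strand) and chr12:24949131-24949160 (BCAT1, minus strand). They are followed by those of 2 called falls in which that control was not the highest, at chr15:79971241-79971270 (BCL2A1, minus strand) and chr6:32817105-32817134 (HLA-DOB, minus strand). Each is written along its gene, with the match in capitals. A match describes the letters only and is no evidence of binding.
ASNS: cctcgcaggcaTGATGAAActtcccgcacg
AARS: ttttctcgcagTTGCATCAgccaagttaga
CHAC1: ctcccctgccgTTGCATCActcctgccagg
BCAT1: tgtcttcctgcTGATGCAAtccgctaggtc
BCL2A1: atattataaagTGATGCAAacagaaattcc
HLA-DOB: ccagtacctgaTGATGCAAaactcttctat

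The remaining lists held few calls. None of 26 TCA cycle and glutamine entry genes was called. OGDH, the E1 subunit of the oxoglutarate dehydrogenase complex, was read at 174, 146 and 157 against 119.8, 104 and 96.0 CPM, and its log2 fold change of -0.58 (SE 0.12, adjusted p = 0.0217) fell just short of the 1.5-fold limit, which it passed without shCTRL replicate 2 (-0.64, adjusted p = 0.0358). In glycolysis and the hypoxia response 1 of 22 genes was called lower, beside 4.23% of all genes. It was HIF1A, the oxygen-regulated subunit of hypoxia-inducible factor, at 122, 148 and 125 against 84.6, 95.3 and 78.1 CPM (-0.61, adjusted p = 0.0267, lost without shCTRL replicate 2 at 0.068). The median of that list was 0.267, on the other side of 0, and 0.058 without shCTRL replicate 2. Of 31 cell cycle and DNA replication genes 1 was called higher, beside 2.12% of all genes. It was CCNE2, cyclin E2, at 44.9, 27.8 and 29.1 against 53.7, 96.8 and 57.7 CPM (1.01, adjusted p = 0.0333, lost without shCTRL replicate 2 at 0.0908). Of the 31, 28 had a log2 fold change above 0, with a median of 0.22 against 0.006 over all genes tested. The groups overlapped, however. Summed over the list, the controls held 3954, 3151 and 2556 CPM and the shSIRT3-2 libraries 3556, 4219 and 3428 CPM. Only 1 of the 31 genes was fully separated upward, beside 15.4% of all tested genes. Of 25 autophagy and lysosome genes 1 was called higher, beside the same 2.12%. It was LAMP2, a lysosomal membrane protein (0.63, adjusted p = 0.0472, lost without shCTRL replicate 2 at 0.118). The calls of HIF1A, CCNE2 and LAMP2 were also lost without shCTRL replicate 3 (adjusted p = 0.066, 0.105 and 0.117), shSIRT3-2 replicate 2 (0.0593, 0.0972 and 0.165) or shSIRT3-2 replicate 3 (0.0841, 0.0638 and 0.0772), and those of HIF1A and LAMP2 without shSIRT3-2 replicate 1 (0.0729 and 0.0853). No call was made among 22 ER chaperone and unfolded protein response genes, 27 sterol and fatty acid synthesis genes or 18 interferon-stimulated genes.

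**Figure D5:**
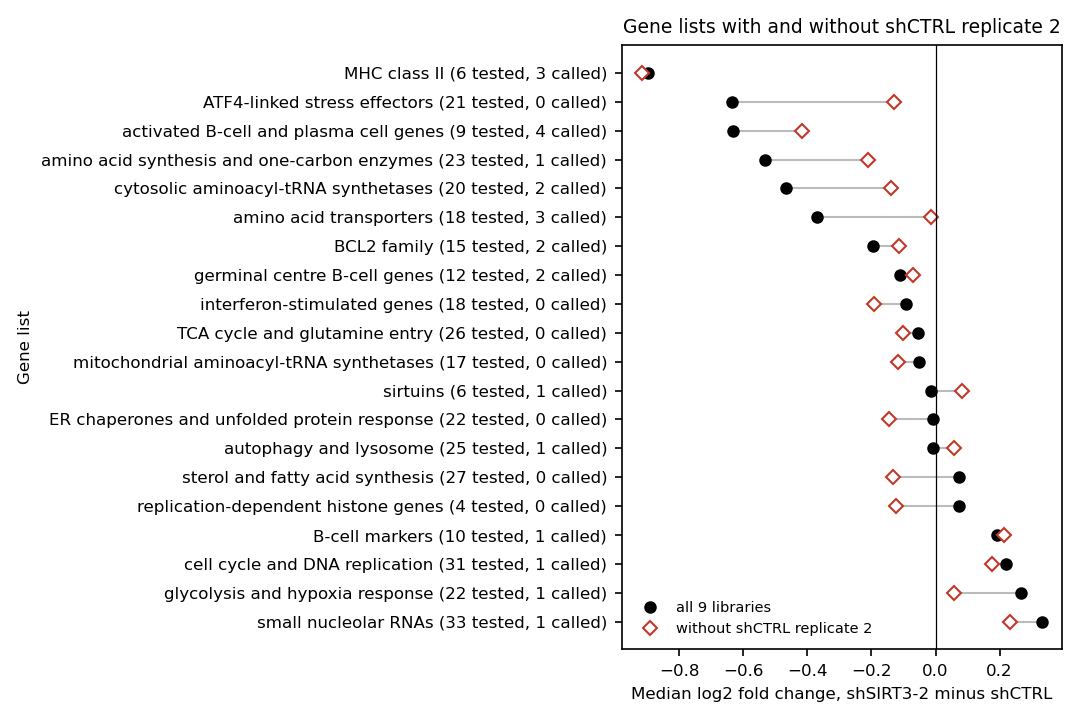
Median log2 fold change of shSIRT3-2 minus shCTRL over the tested members of 20 gene lists, from the fit to all 9 OCI-Ly1 libraries (filled circles) and from the fit without shCTRL replicate 2 (open diamonds). The stress effector median moved from -0.635 to -0.13 and that of amino acid transporters from -0.37 to -0.015, while that of MHC class II genes moved from -0.897 to -0.918.

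The hairpins were then compared directly, shSIRT3-2 with shSIRT3-1, which leaves the control libraries out of the contrast. Of the 11003 genes 478 (4.34%) were called, 238 lower (2.16%) and 240 higher (2.18%) with shSIRT3-2. The split depended on the setting. It was 203 lower and 307 higher under median-ratio scaling, 302 lower and 203 higher with no filter, and 464 lower and 330 higher with array weights. The filter used no shSIRT3-1 library, so genes read only with that hairpin were not tested. The count lay between 191 and 412 with single libraries left out, with 240 without shSIRT3-1 replicate 1, 191 without shSIRT3-1 replicate 3 and 297, 261 and 242 without shSIRT3-2 replicates 1, 2 and 3. FCRL2 had the largest difference downward among the genes named by rule for this comparison, followed by PTPN6, the phosphatase SHP-1 that restrains B-cell receptor signalling. PTPN6 was read at 2.19, 1.78 and 1.92 CPM with shSIRT3-2, at 13.8, 10.2 and 16.0 CPM with shSIRT3-1 and at 4.03, 4.92 and 13.7 CPM in the controls, a hairpin difference of -2.68 (SE 0.38, adjusted p = 0.00599). All 3 controls lay above the shSIRT3-2 libraries, and replicate 3 lay within the shSIRT3-1 range. CAMP, the antimicrobial peptide cathelicidin, and PEX5L, a relative of the peroxisomal import receptor, were lower by -2.48 and -2.31 on the log2 scale (adjusted p = 0.00341 and 0.00421). The class II genes HLA-DMB and HLA-DOB were also lower with shSIRT3-2 than with shSIRT3-1 (-1.66, adjusted p = 0.0227, and -1.44, adjusted p = 0.0132), as was LTA (-1.95, adjusted p = 0.00758).

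In the other direction, PHYH, an enzyme of peroxisomal phytanic acid breakdown, was read at 10.9, 24.1 and 13.4 CPM with shSIRT3-2, at 1.51, 3.69 and 1.78 CPM with shSIRT3-1 and at 1.88, 2.88 and 2.70 CPM in the controls. The hairpins differed by 2.76 (SE 0.36, adjusted p = 0.004), and the difference from the controls was 2.58 (adjusted p = 0.00859) and was called with every library left out in turn. NAV3 differed by 3.42 (adjusted p = 0.0165) and C10orf71 by 2.26 (adjusted p = 0.00849). RAB37, a GTPase of secretory granules, and FCMR, the receptor for IgM, also stood higher with shSIRT3-2 than with shSIRT3-1 (2.19 and 1.98, adjusted p = 0.016 and 0.0337). For both genes the shSIRT3-2 libraries overlapped the controls. The shSIRT3-1 libraries lay below all controls for RAB37 and overlapped them for FCMR. The hairpin calls of NAV3, RAB37 and FCMR were lost without shSIRT3-1 replicate 1 (adjusted p = 0.063, 0.062 and 0.115) or shSIRT3-2 replicate 2 (0.0555, 0.0528 and 0.108). Those of NAV3 and FCMR were also lost without shSIRT3-1 replicate 3 (0.0704 and 0.113), those of RAB37 and FCMR without shSIRT3-2 replicate 3 (0.0515 and 0.0849), and that of FCMR without shSIRT3-2 replicate 1 (0.0703). Of the 10 largest rises over shCTRL only NAV3 and C10orf71 differed between the hairpins, and of the 10 largest falls only CCDC141 (-2.15, adjusted p = 0.00411) and TSPOAP1 (-1.57, adjusted p = 0.0204). Both hairpins are compared with the same 3 controls, 461 genes (4.19%) were called with shSIRT3-1, and 132 were called in the same direction with both.

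Finally the response of OCI-Ly1 to shSIRT3-2 was tested against the mean response of Karpas422 and HBL1 to the same hairpin, each line with its own controls. Among the 11003 genes 635 differed (5.77%), 221 lower (2.01%) and 414 higher (3.76%) in OCI-Ly1, and 161 of them were also called in OCI-Ly1 alone. Genes were admitted by their level in the 6 OCI-Ly1 libraries, so those hardly read in the other lines could not fall there. In a fit with the replicate block 993 differed, and under quantile normalization the split was 308 lower and 368 higher. The count was 922 without shCTRL replicate 2, 365 without shCTRL replicate 3 and 413 without shSIRT3-2 replicate 2. SIRT3 itself did not pass this test (difference 0.43, adjusted p = 0.321), with log2 fold changes of -1.08 in OCI-Ly1, -0.878 in Karpas422 and -2.14 in HBL1. Nor did ATF4, whose log2 fold change was -1.49 in Karpas422 and -1.10 in HBL1 (difference 0.79, adjusted p = 0.072). The mean control level of ATF4 was 326 CPM in Karpas422 and 303 CPM in HBL1, where OCI-Ly1 controls read 152, 326 and 129 CPM. ADM2 and CEBPB, a C/EBP partner of ATF4, did differ (2.90, adjusted p = 0.0129, and 2.09, adjusted p = 0.0423), with log2 fold changes of -4.63 and -3.93 in Karpas422 and -3.50 and -3.30 in HBL1 against -1.17 and -1.53 in OCI-Ly1. FCRL3 differed in the other direction (-2.51, adjusted p = 0.0027), its log2 fold change being 1.00 in Karpas422 and -0.39 in HBL1. MCL1 differed by -0.66 (adjusted p = 0.00698), its change being -0.08 in Karpas422 and -0.28 in HBL1.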

How the data were processed

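Per the paper's methods, total RNA was made into random-primed libraries with a TruSeq kit and sequenced in paired ends, reads were aligned to hg19 with STAR, and RefSeq genes were counted with Rsubread. Strand was not stated, so reads of overlapping and antisense genes cannot be told apart. The authors deposited 1 value per gene and library in a column named FPKM. In every library the deposited values are whole multiples of 1 step shared by all genes (100% whole, within 0.01 step), so they were treated as CPM, from which reads were recovered, and levels were not compared between genes. In shCTRL replicate 3 and shSIRT3-2 replicate 1 that step is close to the last decimal written. The listed genes held 42137546 to 50147928 reads in the 6 libraries, and 3 reads equal 0.0260 to 0.0310 CPM.

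Genes with at least 1 CPM in at least 3 of the 6 libraries were tested. The log2(CPM + 0.1) values of the 9 OCI-Ly1 libraries were fitted with limma 3.58.1 (R 4.3.3) with a variance trend and 1 term per group, and the 27 libraries of the 3 lines for the difference between lines. Calls needed a change of more than 1.5-fold together with an adjusted p (Benjamini-Hochberg) under 0.05. edgeR 4.0.16 called 757 genes on the recovered reads. DESeq2 1.42.0, other scalings, pseudocounts and filters, limma array weights, each library left out and a replicate block were alternatives. Leaving out replicate 2 of all 3 groups, and the block without shCTRL replicate 2, were added after seeing the data. The test code was checked on simulated data.

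The replicate numbers come from the labels, which do not say what they stand for, so p-values measure the spread between these samples, which may be technical. Deviations from the group means correlated between shCTRL and shSIRT3-2 libraries of the same number (r = 0.147, 0.138 and 0.296). Between shCTRL and shSIRT3-2 libraries of unlike number r lay between -0.222 and 0.0681. For shCTRL with shSIRT3-1, r was 0.341, 0.183 and 0.233 for the same number and -0.208 to -0.0499 otherwise. For shSIRT3-1 with shSIRT3-2, r was 0.490, 0.601 and 0.616 for the same number. There, shSIRT3-1 replicate 3 also correlated with shSIRT3-2 replicate 1 (0.505), and replicate 1 with replicate 3 (0.138). Numbers 1 and 3 were thus not clearly separate pairs. The numbers were taken to pair the samples in the replicate block with that limit. The main fit held no pairing, and calls with libraries left out are from that fit unless a block is named. No pair of libraries was identical or differed by sampling noise alone.

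Genes were named by rule: SIRT3 and ATF4, the 10 largest falls and 10 largest rises among called genes with a mean of at least 1 CPM in the higher group and no overlap, the same 5 and 5 between hairpins and between lines, up to 4 members of each list with the largest change, and the 5 genes with the largest SD over the controls among those with a mean control level of at least 5 CPM. Genes outside this rule were named after their values were seen: the FCRL members other than FCRL2, LTA, BIRC3, BCL3, CXCR5, CCR7, TFRC, CIITA, CD74, CFLAR, HIF1A and SLC7A7. CD79A, MS4A1 and CD3E are named as markers. The genes described and the lists were chosen with earlier results of these data known. Promoter windows are from RefSeq. Results for 2 genes that the rule names are not reported here.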

Additional observations from a re-analysis of the deposited data

Results flagged for a closer look

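The response to shSIRT3-2 differed between OCI-Ly1 and the mean of Karpas422 and HBL1 for 635 genes, by the limma test of that difference. The 5 largest differences downward and the 5 largest upward among the genes named by rule are given here, on the log2 scale, as OCI-Ly1 minus the other lines. NKX6-3 (-3.02), POM121L1P (-2.62), CCDC141 (-2.60) and LINC01102 (-2.54) were lower in OCI-Ly1. In the controls of the other lines their means did not exceed 0.025 CPM, so they could hardly fall there. IFI6, an interferon-induced protein of mitochondria, differed by -2.63. Its mean went from 66.3 to 297 CPM in Karpas422 and from 61.8 to 239 CPM in HBL1, while OCI-Ly1 read 4.06, 3.41 and 3.29 CPM in the controls and 2.76, 3.05 and 2.73 CPM with shSIRT3-2. SDC3, the proteoglycan syndecan 3, differed by 4.48, with means of 6.84 against 1.02 CPM in Karpas422 and 7.64 against 0.729 CPM in HBL1, and 0.569, 0.762 and 0.567 against 1.19, 3.31 and 1.16 CPM in OCI-Ly1. CPNE2 differed by 4.06, its mean going from 33.7 to 8.20 CPM in HBL1 and from 1.003 to 6.395 CPM in Karpas422. C10orf10 differed by 4.26, its mean being 0.0186 and 0.106 CPM in Karpas422 and 2.28 and 2.02 CPM in HBL1 without and with the hairpin. NAV3 differed by 3.92 and KREMEN1 by 3.36, and the means of both genes in the other lines did not exceed 0.532 CPM. With edgeR on the recovered reads 7 of these 10 differences were not called: NKX6-3 and POM121L1P (adjusted p = 0.99995 each), CCDC141 (0.862), KREMEN1 (0.385), LINC01102 (0.338), NAV3 (0.2501) and C10orf10 (0.0607).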

How the results depend on the processing

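For shSIRT3-2 against shCTRL the count of 698 became 1078 with DESeq2 (747 lower, 331 higher), 375 with the 6 libraries alone, 354 without replicate 2 of all groups, and 117 to 1284 with single libraries left out. SIRT3 lost its call with no filter (log2 fold change -1.08, adjusted p = 0.0611, with more genes tested), with array weights (-0.912) and without replicate 2 of all groups (-0.752), and ranged from -1.18 to -0.888 with single libraries left out. The cause was not tested. The count of 478 between the hairpins became 794 with array weights, 737 with DESeq2 and 191 to 412 with single libraries left out. The count of 635 between lines became 997 with no filter, 993 with the replicate block, 1053 with array weights and 365 to 922 with single libraries left out. The replicate block gave 974 calls against shCTRL, with 696 of the 698 kept, and added CHAC1, SDC3 (adjusted p = 0.0219), LDHA (adjusted p = 0.0375), MCM4 (0.0481), PIM1 (0.0478), PMAIP1 (0.0187) and BCL2 (0.0273) among the genes named by rule, and changed no other call of those reported here. Quantile normalization split the hairpin comparison into 204 lower and 274 higher. Over 121 log2 differences of 113 named genes, 2089 values kept direction and call, 156 lost the call, 82 gained it and 21 changed sign. With quantile normalization LAT (0.0707) and HIST1H1C (0.0763) changed sign, with array weights HIST1H2BK (-0.251) and TNS1 (0.342), without replicate 2 of all groups CALR (-0.0672), LAT (0.00379), HIST1H2BK (-0.460) and TNS1 (0.0767), and with the replicate block and without shCTRL replicate 2 LAT (0.0264), HIST1H2BD (-0.283) and HIST1H2BK (-0.626). With single libraries left out the sign changed within the ranges of ADM2 (-1.85 to 0.0102), CALR (-0.0310 to 0.885), CA9 (-2.03 to 0.151), LAT (-0.175 to 0.0588), HIST1H2BK (-0.274 to 0.491), HIST1H1C (-0.330 to 0.103) and TNS1 (-1.48 to 0.802). With 3 libraries a group and controls that differ, changes in genes such as the ATF4-linked effectors could not be resolved.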

Other observations

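Small nucleolar RNAs, which guide the chemical modification of ribosomal RNA, were tested for 33 of the 429 listed. SNORA104 was the only call, a fall, beside 4.23% of all genes called lower. It went from 2.71, 3.35 and 3.01 to 1.92, 1.71 and 1.66 CPM (log2 fold change -0.74, adjusted p = 0.0283, limma), while the median of the 33 was 0.33. That call was lost without shCTRL replicate 2 (adjusted p = 0.0714), shCTRL replicate 3 (0.0745) or shSIRT3-2 replicate 1, 2 or 3 (0.0605, 0.096 and 0.087). Many of them lie inside host genes, whose reads can overlap them. Of 73 replication-dependent histone genes 4 were tested and none was called.

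TNS1, an adaptor of focal adhesions, had a spread over the controls of the same order as CHAC1. It was read at 0.838, 0.917 and 19.1 CPM in shCTRL and at 3.52, 0.147 and 5.42 CPM with shSIRT3-2 (log2 fold change -0.63, adjusted p = 0.804). Replicate 3 was the highest library of both groups, and also of shSIRT3-1, at 0.825, 0.195 and 3.47 CPM.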
